A study of Triticum aestivum with 24 samples.

Results

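A set of 97 wheat probe sets had a lower mean log2 level in wet flag leaves at grain filling than at heading. The fall was at least 1 in both cultivars, and dry and wet leaves differed by less than 1 at each stage. The members were chosen by their measured values. To be tested, a probe set had to exceed a signal of 69 (the median over the table) on at least 3 of the 24 arrays, which left 37516 of the 61179 non-control probe sets. Levels are log2(signal + 11.71), averaged over the 3 arrays of a group. A difference of 1 is 2-fold in signal + 11.71, not in the signal itself. Ratios of mean signals can therefore be larger or smaller. TaAffx.83146.1.S1_s_at had mean signals of 3.65 in dry and 28.9 in wet TAM 112 grain filling leaves. Ta.4041.1.S1_at had 794 in wet grain filling and 955 in wet heading TAM 112 leaves. A member was lower by at least 1 in wet grain filling leaves than in wet heading leaves in both cultivars. It also differed by less than 1 between dry and wet leaves in each of the 4 combinations of cultivar and stage. Of the tested probe sets, 319 met the condition on stage, and the condition on water left out 222 of them.

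The arrays held RNA from flag leaves of greenhouse-grown bread wheat, hybridised to the Affymetrix wheat array, in 8 groups of 3 arrays. These were TAM 112 and TAM 111, both winter wheat cultivars bred in Texas, at grain filling and at heading, in dry and in wet treatments. Field capacities of 90% and 50% are given for the water treatments, without saying which of them was called wet. Whether replicates came from separate plants is not said, so p-values rest on a spread between arrays that may be technical. Changes in leaf makeup and in RNA amount per cell cannot be told apart in such whole-leaf RNA.

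The flag leaf is the uppermost leaf of the wheat stem and supplies much of the sugar that fills the grain. At heading it has recently finished expanding. During grain filling it is a mature source leaf, and its nitrogen is later moved to the grain as it senesces. Gibberellins are growth hormones of stems and leaves, and gibberellin 20-oxidases catalyse late steps towards their active forms.

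Few of the members could be given a gene. A probe table paired 8 of the 97 with a gene, and 1 of these was a named gene, the gibberellin 20-oxidase GA20ox1d. The other 7 were paired with loci known only by number: LOC543137, LOC100037562, LOC543085, LOC543145, LOC606310, LOC543383 and LOC780640. The remaining 89 members had no gene in the table, which covered 980 of the tested probe sets in all, and they are called by their probe set names. The 17 gene lists drawn up for wheat leaves could say little about the members. Of these lists, 8 matched 0 tested probe sets and 8 matched 1 to 7. The largest list, photosynthesis, had 19 tested probe sets and 0 members. Matching used gene symbols and synonyms only, so the counts do not show which such genes were tested. The marker sets described further on had 4 tested grain storage and 13 tested histone probe sets, against 0 and 7 in these lists. The gibberellin 20-oxidases, a list added after the data were seen, held 1 member among 4 tested probe sets.

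Some TAM 111 arrays bear on the results. On the second principal component, which carried 14.8% of the variance, TAM 112 arrays lay between -51.4 and -29.5 and 9 TAM 111 arrays between 45.2 and 62. The 3 TAM 111 arrays numbered 2 from wet heading, dry heading and wet grain filling leaves lay at 1.71, 10.5 and 4.05, between the cultivars. Without these 3 arrays the rule found 93 probe sets, 66 of them among the 97. Both TAM 111 grain filling arrays numbered 1 lay with their cultivar on this component, but were far from the other TAM 111 arrays for 1 member described further on. Without both, the rule found 105 probe sets, 74 of them among the 97.

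The fall in wet leaves was mostly moderate and of like median size in both cultivars. The median difference of grain filling minus heading was -1.39 in TAM 112 and -1.39 in TAM 111, while the median of all tested probe sets was 0.0025 and 0.0074. The lowest difference was -3.61 in TAM 112 and -3.02 in TAM 111. A fall of at least 2 on the log2 scale was found in 15 members in TAM 112 and in 12 in TAM 111, with 7 members in both. The fall was larger in TAM 112 for 52 members and larger in TAM 111 for 45. It differed between the cultivars by at least 0.5 in 23 members and by at least 1 in 5. These differences between cultivars were not tested, since both falls were used to choose the members.

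**Figure D1:**
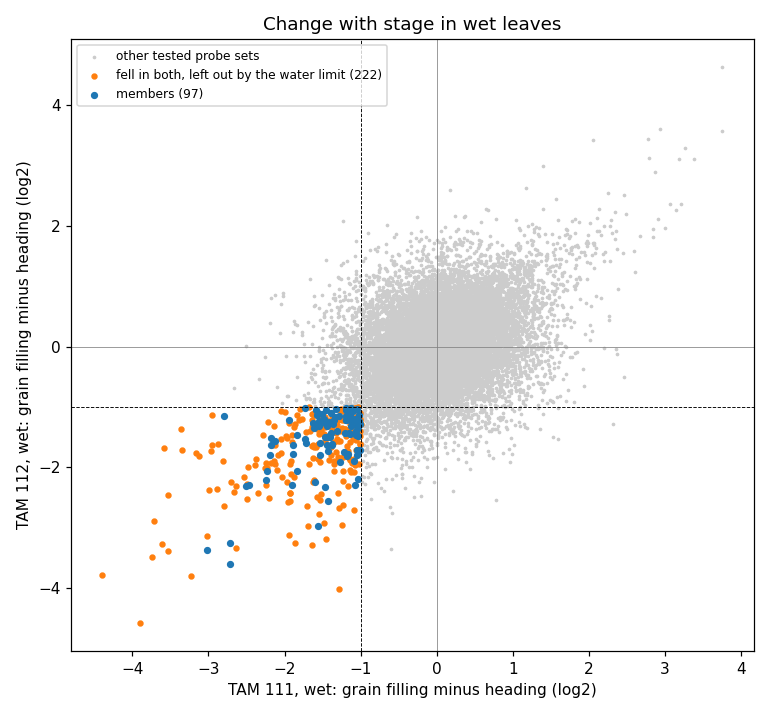
Difference of grain filling minus heading in wet leaves (log2) in TAM 112 (vertical axis) and TAM 111 (horizontal axis) for each tested probe set. Blue points are the 97 members, orange points the 222 probe sets with the same fall that the water condition left out, grey points all others, and dashed lines mark the limit of -1; the members lie at moderate falls, with medians of -1.39 in both cultivars.

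All 3 wet grain filling arrays lay below all 3 wet heading arrays for 85 members in TAM 112, against 11.6% of all tested probe sets. In TAM 111 this held for 76 members, against 10.1% of all, and in both cultivars for 72, against 3.89% of all. In limma, 66 members were called lower at wet grain filling in TAM 112 (2.27% of all tested probe sets) and 52 in TAM 111 (1.42% of all). These shares describe the choice of members and are no further evidence for it. The members nearest the limit from inside were Ta.30702.1.S1_x_at, at -1.72 in TAM 112 and -1.01 in TAM 111, and TaAffx.117528.1.S1_at, at -1.28 and -1.01. Just outside lay TaAffx.83636.1.S1_at, at -0.996 in TAM 112 and -1.13 in TAM 111, and Ta.385.1.A1_s_at, at -0.995 and -1.04.

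The probe set with the deepest joint fall was Ta.22766.2.S1_x_at. TAM 112 signals were 52.6, 79.3 and 93.7 on the wet grain filling arrays, against 963, 577 and 1204 on the wet heading arrays. In TAM 111 they were 125, 95.0 and 55.7 at wet grain filling, against 1524, 625 and 530 at wet heading. The stages did not overlap in either cultivar, and the lowest heading array was above every grain filling array several times over. The log2 differences were -3.38 in TAM 112 and -3.02 in TAM 111 (SE 0.462 each). Dry leaves gave the same order, with 128, 103 and 269 at grain filling, against 563, 1821 and 627 at heading in TAM 112. In dry TAM 111 leaves the signals were 93.5, 141 and 177 at grain filling, against 1624, 1618 and 728 at heading. The difference of dry minus wet in TAM 112 at grain filling was 0.955, just inside the water limit of 1. TaAffx.83146.1.S1_s_at (-0.946) and Ta.12472.1.S1_x_at (-0.929), described below, were also close to the limit there.

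Ta.29424.1.A1_a_at had the largest fall in TAM 112. Its wet signals there were 28.5, 36.0 and 59.2 at grain filling, against 544, 521 and 828 at heading, a difference of -3.61. In wet TAM 111 leaves they were 46.8, 81.5 and 35.2 at grain filling, against 1049, 271 and 233 at heading, a difference of -2.72 (SE 0.557 each). In TAM 111 the size of the fall leaned on 1 bright heading array, while all 3 heading arrays were still above all 3 grain filling arrays. In dry leaves the difference was -3.30 in TAM 112 and -1.61 in TAM 111.

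TaAffx.83146.1.S1_s_at was near background at grain filling on most arrays. Its wet signals in TAM 112 were 3.70, 7.35 and 75.7 at grain filling, against 330, 200 and 299 at heading. TAM 111 gave 51.7, 33.1 and 6.45 at wet grain filling, against 280, 207 and 219 at wet heading. Both cultivars were separated by stage without overlap, with heading levels alike in the 2 cultivars and uneven values at grain filling. The differences were -3.26 in TAM 112 and -2.72 in TAM 111 (SE 0.514 each).

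Ta.12472.1.S1_x_at showed a like pattern, with heading levels that were close in both cultivars. In wet TAM 112 leaves its signals were 22.5, 92.5 and 21.2 at grain filling, against 194, 224 and 283 at heading. TAM 111 gave 66.8, 12.6 and 30.1 at wet grain filling, against 271, 250 and 185 at wet heading. No grain filling array reached a heading array in either cultivar. The differences were -2.31 in TAM 112 and -2.50 in TAM 111 (SE 0.434 each), and in dry leaves -3.22 and -3.17.

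Ta.7467.1.S1_x_at stayed above background at both stages. Its wet signals in TAM 112 were 116, 442 and 109 at grain filling, against 1231, 644 and 1008 at heading. Those of TAM 111 were 232, 156 and 112 at wet grain filling, against 1207, 1009 and 679 at wet heading. The stages did not overlap, although 1 TAM 112 grain filling array stood well above its replicates. The wet differences of -2.30 in TAM 112 and -2.47 in TAM 111 (SE 0.403 each) were larger than the dry ones of -1.11 and -1.19.

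Ta.5567.1.S1_at, paired with LOC543137, varied widely between arrays. Wet TAM 112 leaves had signals of 5.15, 13.3 and 57.9 at grain filling, against 333, 137 and 268 at heading. In TAM 111 they were 39.5, 17.1 and 13.1 at wet grain filling, against 15.9, 118 and 250 at wet heading. The TAM 112 stages were apart, but 1 wet TAM 111 heading array was as dim as the grain filling arrays, so these groups overlapped. The differences were -2.98 in TAM 112 and -1.56 in TAM 111 (SE 0.638 each). The dry differences were -3.34 in TAM 112 and -3.09 in TAM 111.

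**Figure D2:**
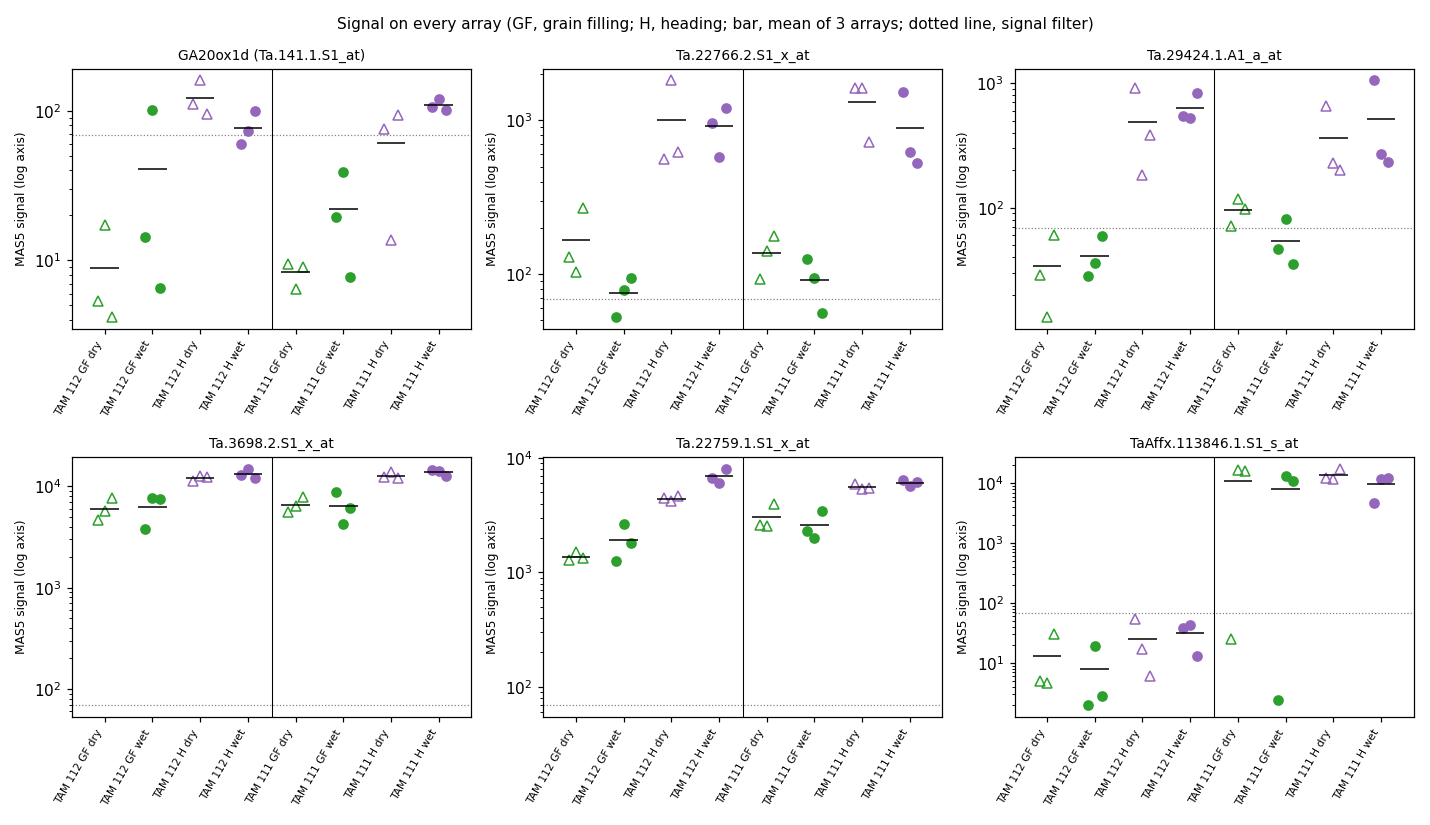
MAS5 signal (log axis) of 6 members on every array, by cultivar, stage (GF, grain filling; H, heading) and water treatment (triangles, dry; circles, wet), with bars for the means of 3 arrays and a dotted line at the signal filter of 69. Ta.22766.2.S1_x_at and Ta.29424.1.A1_a_at are separated by stage in wet leaves of both cultivars, while TaAffx.113846.1.S1_s_at is separated by cultivar except on 2 TAM 111 arrays.

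Members differed widely in brightness. Their mean signal over all arrays ran between 30.5 and 9682 with a median of 344, and the median of all tested probe sets was 251. A mean above 1000 was found for 28 members and one below 69 for 19. On all 24 arrays 49 members were above 69. At wet grain filling 17 members were at or below 69 on all 6 arrays, and 2 of these 17 were above 69 on all 6 wet heading arrays.

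Bright members also met the rule. Ta.3698.2.S1_x_at had wet signals in TAM 112 of 3812, 7617 and 7538 at grain filling, against 13092, 14972 and 12141 at heading. In TAM 111 they were 8829, 4286 and 6170 at wet grain filling, against 14372, 14292 and 12780 at wet heading. The stages were separate in both cultivars, with the wider spread at grain filling. The differences were -1.15 in TAM 112 and -1.16 in TAM 111 (SE 0.236 each).

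TaAffx.4324.2.S1_at had narrow groups and a larger fall in TAM 111. Wet TAM 112 leaves had signals of 2590, 2551 and 2369 at grain filling, against 5234, 5221 and 4808 at heading. Those of TAM 111 were 2096, 1678 and 1930 at wet grain filling, against 7383, 7012 and 4913 at wet heading. The grain filling arrays were far below the heading arrays in both cultivars. The differences were -1.02 in TAM 112 and -1.74 in TAM 111 (SE 0.134 each). In dry leaves they were -0.58 and -0.80.

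A pair of probe sets of 1 sequence in the cluster Ta.1454 were members and gave like values. Ta.1454.2.S1_x_at had wet signals in TAM 112 of 1677, 3413 and 2462 at grain filling, against 6770, 5015 and 5912 at heading. In wet TAM 111 leaves they were 2220, 2192 and 1442 at grain filling, against 7136, 7205 and 4075 at heading. No grain filling array overlapped a heading array. The differences were -1.27 in TAM 112 and -1.63 in TAM 111, and those of Ta.1454.2.S1_at were -1.26 and -1.47. In dry leaves the differences of Ta.1454.2.S1_x_at were -0.67 in TAM 112 and -0.73 in TAM 111. Other sequences of this cluster differed in direction in wet leaves. Ta.1454.1.S1_x_at was at -0.37 in TAM 112 and -0.96 in TAM 111. Ta.1454.3.S1_at was at 0.68 and 0.45, and Ta.1454.3.S1_x_at at 0.31 and 0.41. These rises were not called by limma.

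GA20ox1d (probe set Ta.141.1.S1_at) was the member with a named gene. Its wet signals in TAM 112 were 14.4, 101 and 6.56 at grain filling, against 59.6, 72.6 and 99.4 at heading. In wet TAM 111 leaves they were 19.5, 39.2 and 7.71 at grain filling, against 105, 121 and 101 at heading. The TAM 111 stages were apart, while in TAM 112 the brightest grain filling array was above all heading arrays, so the stages overlapped. The wet differences were -1.21 in TAM 112 and -1.94 in TAM 111 (SE 0.571 each). In dry leaves GA20ox1d had signals in TAM 112 of 5.33, 17.3 and 4.19 at grain filling, against 111, 159 and 95.3 at heading, a difference of -2.72. In dry TAM 111 leaves it had 9.43, 6.44 and 9.09 at grain filling, against 76.0, 13.6 and 94.0 at heading, a difference of -1.63.

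The other gibberellin 20-oxidase probe sets were also dim, and none of them met the rule. A second GA20ox1d probe set, Ta.141.1.S1_x_at, was lower at wet grain filling in TAM 112, at -2.24 (SE 0.376, limma adjusted p = 0.00134). In wet TAM 111 leaves it differed by -0.23 (adjusted p = 0.84). Its signal in TAM 112 was 128, 103 and 103 at wet heading, and in TAM 111 it was 60.2, 109 and 74.4 at dry heading. On all other arrays this probe set lay near background, which sets it apart from the member probe set of the same gene. GA20ox1b (Ta.23667.1.S1_at) differed by -0.72 in TAM 112 (adjusted p = 0.487) and by -1.09 in TAM 111 (adjusted p = 0.304) in wet leaves. GA20OX1-A (Ta.23668.1.S1_at) differed by -0.87 in TAM 112 (adjusted p = 0.516) and by -1.61 in TAM 111 (adjusted p = 0.214) in wet leaves. In dry leaves Ta.141.1.S1_x_at differed by -0.25 in TAM 112 (adjusted p = 0.661) and by -1.995 in TAM 111 (adjusted p = 0.000799). GA20ox1b differed by -1.26 in dry TAM 112 leaves (adjusted p = 0.0599) and by -1.16 in dry TAM 111 leaves (adjusted p = 0.122). GA20OX1-A differed by -1.08 in dry TAM 112 leaves (adjusted p = 0.219) and by -1.96 in dry TAM 111 leaves (adjusted p = 0.0378). Of the 4 probe sets of this family, 1 was called lower in wet TAM 112 leaves and 0 in wet TAM 111 leaves. The call was that of Ta.141.1.S1_x_at, which is no member. The member Ta.141.1.S1_at was called in wet leaves of neither cultivar (limma adjusted p = 0.261 in TAM 112 and 0.0721 in TAM 111). Transcripts of related copies of these genes in the wheat subgenomes may bind the same probes, so levels of single copies are uncertain.

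For the bright member TaAffx.113846.1.S1_s_at, the fall in TAM 111 rested on 1 array. Its signals in TAM 111 were 2.41, 13122 and 10811 at wet grain filling, against 4605, 11835 and 12269 at wet heading. In dry TAM 111 leaves they were 24.8, 16589 and 16112 at grain filling, against 12109, 11703 and 17545 at heading. The 2 TAM 111 grain filling arrays numbered 1 were thus near background, as were all 12 TAM 112 arrays, which lay between 1.97 and 53.8. Without both arrays the difference of grain filling minus heading in TAM 111 was 0.45 in wet and 0.27 in dry leaves, where it had been -2.80 in wet leaves with them, so the fall turned into a rise. In TAM 112, where the wet difference was -1.15, all values were below the signal filter.

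In dry leaves the members were also lower at grain filling, as the water condition made likely. The median difference of grain filling minus heading was -1.21 in TAM 112 and -1.27 in TAM 111, against -0.081 and -0.054 for all tested probe sets. It was below 0 for 97 members in TAM 112 and for 96 in TAM 111, and at or below -1 for 60 and for 61. In both cultivars it was at or below -1 for 48. The exception in TAM 111 was Ta.7594.2.S1_x_at (LOC780640), a dim probe set at 0.50. All 3 dry grain filling arrays lay below all 3 dry heading arrays for 66 members in TAM 112 (24% of all tested probe sets) and for 81 in TAM 111 (19.7% of all). Limma called 66 lower in TAM 112 (18.5% of all) and 62 in TAM 111 (8.93% of all). Each difference between dry and wet leaves was held within 1 by the rule, so these values are not independent of it.

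**Figure D3:**
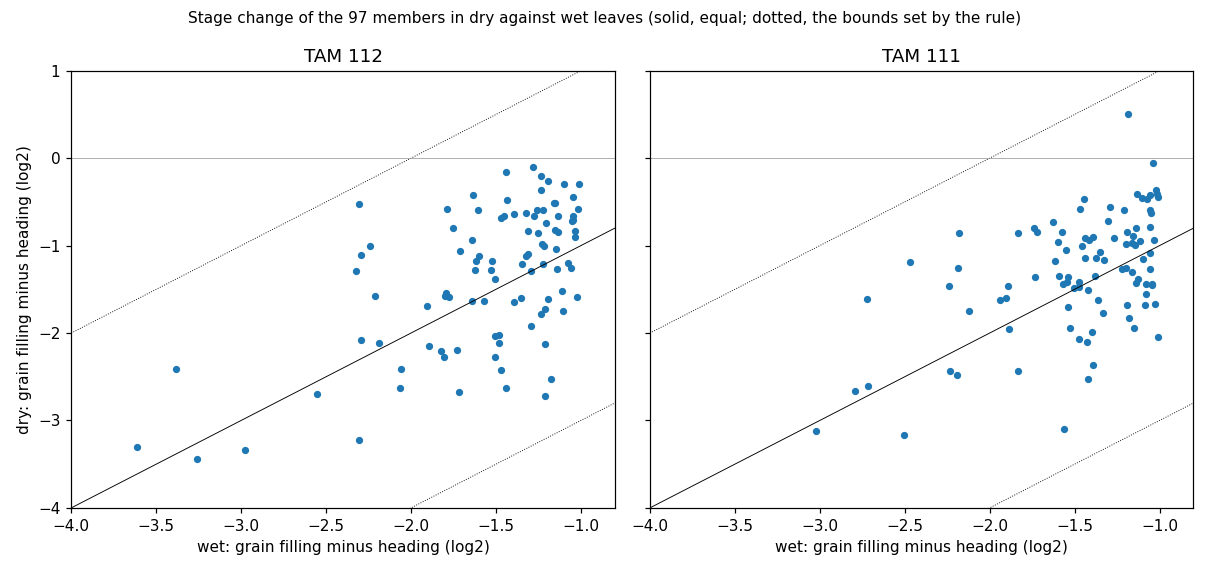
Difference of grain filling minus heading (log2) in dry leaves (vertical axis) against wet leaves (horizontal axis) for the 97 members, with TAM 112 on the left and TAM 111 on the right. Solid lines mark equal differences and dotted lines the bounds that the rule sets; the dry medians were -1.21 in TAM 112 and -1.27 in TAM 111, and 1 member in TAM 111 was above 0.

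Within the limit, differences between dry and wet leaves remained, and few of them were called. The difference of dry minus wet reached at least 0.5 in either direction, in at least 1 of the 4 combinations, for 82 of the 97. The median of each member's largest difference was 0.743. These values take the largest of 4 differences and were not set beside all tested probe sets, so they do not show a response to water. The median over members was -0.02 in TAM 112 at grain filling and -0.27 in TAM 112 at heading. In TAM 111 it was 0.17 at grain filling and -0.11 at heading. At grain filling limma called 17 members in TAM 112 (31.6% of all tested probe sets) and 7 in TAM 111 (18.9% of all). At heading it called 5 in TAM 112 (3.6% of all) and 4 in TAM 111 (4.54% of all). The upper bound on water response limits these counts.

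The 222 probe sets with the same fall in wet leaves that the water condition left out were past its limit mostly at grain filling. There, 159 of them were past it in TAM 112, 69 of these being lower in dry leaves, and 152 in TAM 111, 59 being lower in dry leaves. At heading 64 were past it in TAM 112, of which 45 were lower in dry leaves, and 84 in TAM 111, of which 57 were lower. A single combination kept out 74 of the 222.

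The level of the members as a whole separated the stages on every array. The members were chosen by these same arrays, so this describes the choice and is no further evidence for it. The median log2 level of the members in TAM 112 was 7.32 ± 0.163 at dry and 7.46 ± 0.431 at wet grain filling, against 8.84 ± 0.103 at dry and 9.20 ± 0.274 at wet heading (SD, n = 3 each). In TAM 111 it was 7.62 ± 0.144 at dry and 7.42 ± 0.137 at wet grain filling, against 9.13 ± 0.042 at dry and 9.0 ± 0.279 at wet heading (SD, n = 3 each). The widest group was wet TAM 112 grain filling, whose arrays ran between 6.96 and 7.72.

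**Figure D4:**
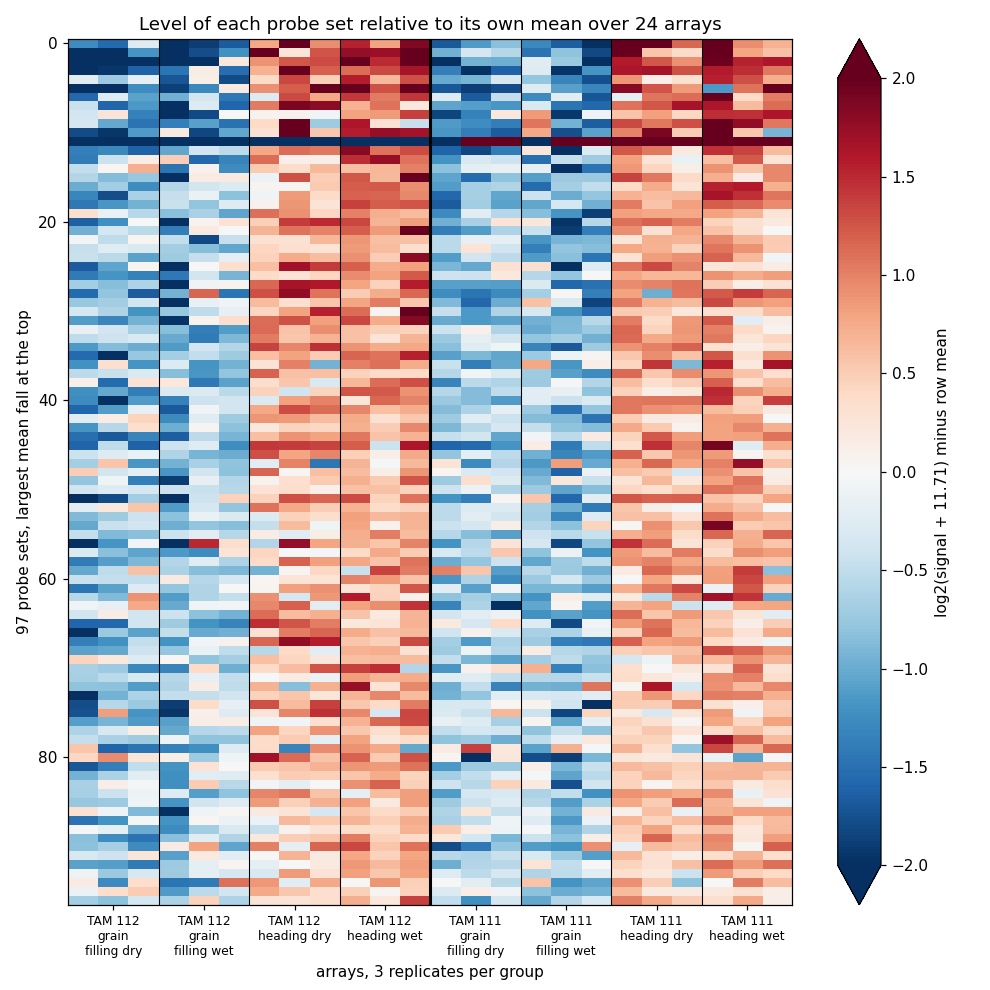
Level of each of the 97 members (rows, largest mean fall in wet leaves at the top) on each of the 24 arrays (columns), as log2(signal + 11.71) minus the mean of its row. Blue is below and red above that mean; grain filling columns are mostly blue and heading columns mostly red in both cultivars, with single arrays that depart, and 1 row (TaAffx.113846.1.S1_s_at) follows the cultivar instead.

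Choosing probe sets from 2 replicates by the same rule and reading the third gave values that the choice had not used. Without the arrays numbered 1, the rule chose 72 probe sets, 37 of them among the 97. In the left-out arrays their median difference in wet leaves was -1.34 in TAM 112 and -1.17 in TAM 111, and 59 of them (81.9%) were lower at grain filling in both cultivars, against 30.2% of all tested probe sets. Without the arrays numbered 2 it chose 99, with medians of -0.83 in TAM 112 and -1.22 in TAM 111 in the left-out arrays, and 81 (81.8%) were lower in both, against 27.6% of all. Without the arrays numbered 3 it chose 103, with medians of -1.17 and -0.92, and 90 (87.4%) were lower in both, against 28.1% of all. The full fall of at least 1 in both cultivars was reached in the left-out arrays by 43.1% of the chosen probe sets for number 1, 28.3% for number 2 and 34% for number 3, against 1.54%, 1.08% and 1.19% of all. The direction was thus found again for most chosen probe sets, and the full size for fewer. Many of these were not among the 97, which held 51 of the 99 chosen without number 2 and 60 of the 103 without number 3. Since replicates may not be separate plants, the left-out arrays may not be independent of the others.

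Membership depended on single arrays more than the direction did. Leaving out each of the 24 arrays in turn, 17 members always met the rule and 80 failed it at least once. For 95 of the 97 the difference in wet leaves stayed below 0 in both cultivars throughout, and for 88 it stayed at or below -0.5. Besides TaAffx.113846.1.S1_s_at, the exception was Ta.4041.1.S1_at. Its wet signals in TAM 112 were 64.0, 1605 and 713 at grain filling, against 919, 825 and 1122 at heading, and the difference of -1.10 turned to 0.17 without the dimmest grain filling array. The 17 that always met the rule included the bright Ta.22759.1.S1_x_at, Ta.25757.1.A1_at and TaAffx.129569.1.S1_s_at, which were picked out after their values were seen.

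Some members shared a cluster number, the number in a probe set's name that groups sequences taken to be of 1 transcript or close relatives. The 97 members held 90 such numbers, 7 of which had a pair of members, so 14 members may not be separate transcripts. The suffix _x_at, which marks probe sets whose probes can bind several transcripts, was carried by 22 members (22.7%), against 13.8% of all tested probe sets. It was as frequent among the 319 probe sets with the fall in wet leaves before the water condition, at 24.1%. The suffix _s_at, for probes shared by several transcripts, was carried by 9 members (9.28%), against 5.51% of all.

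Other probe sets of the members' clusters, which the rule had not chosen, mostly moved the same way. There were 84 of them in 37 clusters, with a median difference in wet leaves of -0.79 in TAM 112 and -0.77 in TAM 111. Of the 84, 65 (77.4%) were lower at grain filling in both cultivars, against 31.6% of all tested probe sets. Limma called 18 of them (21.4%) lower in both, against 0.818% of all. A rise of at least 1 in both was found in 0, against 274 of the 37516 tested probe sets. A fall of at least 1 in both was found in 20 (23.8%), against 0.593% of all tested non-members. As non-members, these 20 were past the limit on water by the rule. The largest fall was that of Ta.22766.1.S1_a_at, of the same cluster as the member with the deepest joint fall. It was -3.49 in TAM 112 (limma adjusted p = 0.000143) and -3.75 in TAM 111 (adjusted p = 8.06e-05). Ta.28468.2.S1_s_at followed in TAM 111 at -3.72, and was at -2.89 in TAM 112. Probes of 1 cluster can bind the same transcript, so these are not independent transcripts.

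The difference between cultivars, averaged over stage and water, was the 1 contrast that the rule had not used and was tested. Limma called 8 of the 97 members (8.25%) at an adjusted p below 0.05, against 12.5% of all tested probe sets, a share no higher than the background. It called 3 higher in TAM 112 (5.24% of all tested probe sets were) and 5 lower (7.31% of all were). The median difference of TAM 112 minus TAM 111 was -0.01 over the members and -0.02 over all tested probe sets. For 0 members did all 12 arrays of one cultivar lie apart from all 12 of the other, against 1.15% of all tested probe sets.

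Ta.25256.1.A1_at was higher in TAM 112. Its grain filling signals were 125, 186 and 110 in dry and 100, 51.1 and 85.3 in wet TAM 112 leaves, against 95.5, 7.30 and 108 in dry and 18.2, 16.2 and 42.7 in wet TAM 111 leaves. Its heading signals were 317, 213 and 141 in dry and 222, 136 and 238 in wet TAM 112 leaves, against 110, 106 and 112 in dry and 82.4, 37.2 and 89.0 in wet TAM 111 leaves. The cultivars did not overlap within any stage and treatment, although the gap was narrow at grain filling. The difference was 1.21 (SE 0.253, adjusted p = 0.00176), which is 2.32-fold.

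Ta.369.2.S1_x_at was also higher in TAM 112, by 0.66 (SE 0.189, adjusted p = 0.0232). Its wet heading signals were 1705, 1326 and 3237 in TAM 112, against 1091, 909 and 731 in TAM 111, and its wet grain filling signals were 273, 835 and 730, against 534, 187 and 271. The cultivars were apart at wet heading and overlapped at wet grain filling and in dry leaves at both stages. Without the 3 TAM 111 arrays numbered 2 that lay between the cultivars, the difference was 0.53 (adjusted p = 0.0947). Ta.369.1.S1_x_at, a member of the same cluster, was not called, at 0.37 (limma adjusted p = 0.286). The third called higher, Ta.1454.2.S1_at, was so by 0.35 (SE 0.117, adjusted p = 0.049). It lost its call under 23 of 34 alternatives, with adjusted p between 0.0239 and 0.099 over all of them. Ta.1454.2.S1_x_at, a member of the same cluster, was not called, at 0.35 (limma adjusted p = 0.0644).

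Of the 5 members lower in TAM 112, TaAffx.113846.1.S1_s_at stood far beyond the others. The fitted difference was -7.28 (SE 0.969, adjusted p = 9.96e-06). All 12 TAM 112 arrays were below the signal filter, which this member passed only through TAM 111, so the call is no independent support for a difference. The size is not a measured fold either, because it depends on the amount added before the log. On the arrays themselves, TAM 112 lay between 1.97 and 53.8, against 2.41 and 24.8 on 2 TAM 111 arrays and 4605 to 17545 on the other 10.

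Ta.22759.1.S1_x_at was lower in TAM 112 by 0.43 on the log2 scale (difference -0.43, SE 0.105, adjusted p = 0.00685). Its grain filling signals were 1279, 1502 and 1332 in dry and 1260, 2663 and 1797 in wet TAM 112 leaves, against 2585, 2558 and 3981 in dry and 2316, 2000 and 3428 in wet TAM 111 leaves. Its heading signals were 4475, 4182 and 4631 in dry and 6641, 6023 and 8074 in wet TAM 112 leaves, against 5894, 5418 and 5468 in dry and 6376, 5727 and 6137 in wet TAM 111 leaves. The cultivars were apart in dry leaves at both stages and overlapped in wet leaves. The difference was -0.79 at grain filling and -0.08 at heading, and whether these differ was not tested.

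Ta.27790.1.S1_s_at, paired with LOC606310, was lower in TAM 112 at -0.49 (SE 0.122, adjusted p = 0.00862). Its difference was -0.89 at grain filling and -0.10 at heading. In dry grain filling leaves it had signals of 334, 296 and 381 in TAM 112, against 704, 750 and 467 in TAM 111, without overlap. Its cultivars overlapped in wet grain filling leaves and in dry and wet leaves at heading. Ta.30837.1.S1_at was lower at -0.43 (SE 0.121, adjusted p = 0.021), with -0.25 at grain filling and -0.60 at heading. TaAffx.9467.2.A1_at, named here after its values were seen because it completes the 5, was lower at -0.35 (SE 0.113, adjusted p = 0.046), and lost its call under 21 of 33 alternatives, with adjusted p up to 0.0944.

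**Figure D5:**
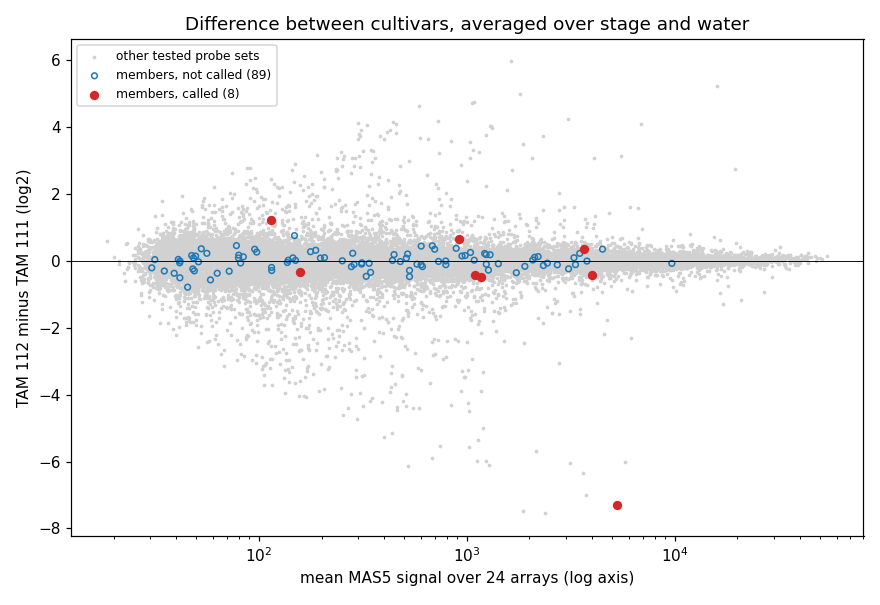
Difference of TAM 112 minus TAM 111 (log2), averaged over stage and water, against the mean MAS5 signal over 24 arrays (log axis) for all tested probe sets (grey) and the 97 members (open blue circles, not called; red, the 8 called). Most members lie near 0, with a median of -0.01, and TaAffx.113846.1.S1_s_at lies at -7.28.

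Markers of the leaf and of other tissues were read beside these results. Of 37 probe sets of 7 photosynthesis genes, 20 had a mean signal at or below 69, with a median of 56.6 and a highest mean of 54272. Each of the 7 genes also had a bright probe set, with means between 14536 (FBP) and 54272 (rbcl). Of 17 probe sets of 8 grain storage protein genes, 14 were at or below 69, with a median of 16.9 and a highest mean of 6855. All 4 probe sets of the anther-expressed raftin genes were at or below 69. None of these lists held a member. Histone genes, which are most active in dividing cells, had 13 tested probe sets. At wet grain filling 3 of them were called lower in TAM 112, against 2.27% of all tested probe sets. In TAM 111, 2 of them were called lower, against 1.42% of all. The summed histone signal in wet TAM 112 leaves was 3030 to 5003 at grain filling, against 5605 to 6411 at heading. In wet TAM 111 leaves it was 4567 to 5962 at grain filling, against 5800 to 6782 at heading. The part of dividing cells in the members' fall was not tested.

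The ratio of 3′ to 5′ control probe sets, a measure of RNA integrity, differed between the stages for some controls. On the log2 scale the actin ratio in wet leaves was 1.20 ± 0.505 at grain filling, against 0.612 ± 0.940 at heading in TAM 112, and 1.5 ± 1.26 against 0.120 ± 0.264 in TAM 111 (SD, n = 3 each). The GAPDH ratio was -2.73 ± 1.25 at grain filling, against -0.939 ± 0.410 at heading in TAM 112, and -2.43 ± 0.478 against -1.44 ± 0.748 in TAM 111. The EF1a ratio in wet leaves was -0.341 ± 0.768 at grain filling, against -1.23 ± 1.39 at heading in TAM 112, and -0.967 ± 0.716 against -2.03 ± 1.67 in TAM 111. The means of actin and EF1a were thus higher and that of GAPDH lower at wet grain filling. In dry leaves the GAPDH ratio was -1.06 ± 0.489 at grain filling, against -1.14 ± 0.356 at heading in TAM 112, and -1.70 ± 0.735 against -1.34 ± 0.75 in TAM 111. The dry actin ratio was 1.11 ± 1.96 against 0.793 ± 1.34 in TAM 112 and 2.20 ± 2.18 against 1.76 ± 0.629 in TAM 111, in the same order of stages. The dry EF1a ratio was 0.825 ± 3.82 against -2.31 ± 2.07 in TAM 112 and 0.029 ± 0.785 against -1.78 ± 2.07 in TAM 111. The part of RNA integrity in the members' fall was not tested.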

How the data were processed

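The authors deposited 1 table of MAS5 signals, an intensity per probe set and array on a linear scale, named as MAS5 per the submitters' processing notes (its version is not given in the sources used). Every array had the same mean of 500.1 after trimming 2% from each end. The 111 control probe sets were left out of 61290. Levels are log2(signal + 11.71), where the added amount is the 20th percentile of the table. The R package limma 3.58.1 (R 4.3.3) fitted 8 group means (lmFit, eBayes with a variance trend), and p-values were adjusted by the Benjamini-Hochberg method over 37516 probe sets. The number of arrays limits the precision.

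The members and gene lists were chosen with earlier results of these data known. Tested was the difference between cultivars; all values of stage and water in members are descriptions. On simulated data for that comparison, it found 83% of 100 added 2-fold changes and 98% of 100 added 4-fold changes, with 13 false calls among 194. The simulation drew independent normal noise for each probe set, with far fewer changed probe sets than were called here. Its rates may therefore differ from those in the real arrays.

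Genes came from a table of 1273 probe sets, updated through the IWGSC CS RefSeq v2.1 annotation (770 of 771 genes found). Named in the text are members with a named gene, the 6 brightest, the 6 with the largest mean fall in wet leaves among those with a mean above 69, up to 4 called in each direction between cultivars, and 2 on each side of the limit. Other names were chosen after their values were seen, among them the loci known only by number and examples from the members' clusters. Replicate numbers were checked for pairing: 2 of 12 same-numbered pairs of the cultivars correlated above 0.1 (-0.0948 to 0.189), so no block was used. This check was between cultivars and says little about pairing within a cultivar. Alternatives were other added amounts, filters and limits, quantile normalization, array weights, no variance trend, the block and leaving out arrays. Leaving out both TAM 111 grain filling arrays numbered 1 was chosen after seeing the data.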

Additional observations from a re-analysis of the deposited data

How the results depend on the processing

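The number of probe sets that met the rule was 97. It fell to 21 with a fall of at least 1.5 and to 57 with the signal filter at 385.6 (the 75th percentile), as both conditions are stricter by construction. It was 105 with no filter, 115 with 1 added to the signal (74 shared), 75 with 4 times the amount added (58 shared), 108 after quantile normalization (94 shared), and 77 to 113 when single arrays were left out. The median fall in wet TAM 112 leaves was -1.14 with 4 times the amount added, where it was -1.39, because a larger added amount shrinks log2 differences. Leaving out single arrays gave -1.53 to -1.21 in TAM 112 and -1.45 to -1.25 in TAM 111. Same-numbered arrays of the cultivars correlated little, which does not show whether the numbers pair arrays within a cultivar. With the replicate number as a block 9 members and 5137 of all tested probe sets were called between cultivars, where 8 and 4708 were without it. Leaving out single arrays gave 6 to 13 members called, with 13 without TAM 112 grain filling wet replicate 1, and 4148 to 5988 of all. Array weights gave 12 members and 5950 of all. Quantile normalization gave 9 members, 5 higher and 4 lower in TAM 112, against 3 higher and 5 lower without it. For the difference between cultivars in 20 members, 673 values under alternatives were computed, of which 624 stayed on the same side of the threshold, 45 lost a call and 4 gained one, with no change of direction in a called value. The lost calls were those of Ta.1454.2.S1_at (23), TaAffx.9467.2.A1_at (21) and Ta.369.2.S1_x_at (1), and the causes were not tested. Signals near background at grain filling limit the size of many falls.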

Other observations

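Several probe sets that are no members had the same array pattern as TaAffx.113846.1.S1_s_at. Over the 24 arrays 9 other tested probe sets correlated with it above 0.9 (Pearson, log2 scale) and 45 above 0.8. The closest were Ta.2895.1.S1_x_at (0.988), Ta.2895.1.S1_at (0.979), Ta.5278.1.S1_x_at (0.972), Ta.5278.1.S1_at (0.968) and Ta.16930.1.S1_at (0.963), which were picked because they are most alike. The points fall into 2 clusters, so these values describe the split and not a graded relation. Ta.2895.1.S1_x_at had signals at wet grain filling of 17.4, 11.7 and 17.0 in TAM 112, against 17.6, 9130 and 7394 in TAM 111. In dry grain filling leaves it had 12.4, 6.32 and 6.06 in TAM 112, against 3.46, 13086 and 11540 in TAM 111. The same 2 TAM 111 arrays, numbered 1 at grain filling, were near background for it. At heading all 6 TAM 111 arrays were bright for this probe set, between 2717 and 13146.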
